A study of Mus musculus with 7 samples.

Results

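A cluster of 10 miRNA hairpins on the mouse X chromosome, known from testis, gave rise to tags in HL-1 cardiomyocytes. The members are mmu-mir-741, mmu-mir-742, mmu-mir-743a, mmu-mir-743b, mmu-mir-871, mmu-mir-878, mmu-mir-880, mmu-mir-881, mmu-mir-463 and mmu-mir-471 (mmu, for mouse, is left out from here on), taken by name from 1222 mouse hairpins searched, of which 685 held a tag. Together they held 10494 of 41180989 deposited tags, or 0.0255%, and all 10 were represented. Their levels, arm use and tag starts were followed over 4 days of culture.

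HL-1 is an immortalised mouse line that descends from atrial cardiomyocytes and keeps the ability to beat, so the samples are 1 cell line and not heart tissue. Small RNA was sequenced on the SOLiD platform at day 1, day 2, day 3 and day 4 after plating, with no treatment, in 7 libraries. Time course 1 gave 3 libraries (days 1, 3 and 4) and time course 2, an independent repeat, gave 4 (days 1 to 4). The only library of day 2 thus comes from time course 2. P-values measure the spread between these libraries, and 2 time courses are a small basis for any statement about repeats. The libraries of a time course are days of 1 repeat, so p-values between the time courses do not measure the spread between repeats.

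A miRNA hairpin is cut from a longer transcript by Drosha and then loses its loop through Dicer, which leaves a duplex of a 5p and a 3p strand. Argonaute keeps mainly one of them, chosen in part by how firmly the ends of the duplex pair, and bases 2 to 8 of the kept strand, the seed, direct target choice. A cut that shifts the 5′ end by a base therefore gives a 5′ isomiR with another seed. The X-linked cluster lies between Slitrk2 and Fmr1, is transcribed mainly in germ cells of the testis, and is among the fast-evolving miRNA families of mammals. Heart muscle, in contrast, is known for miR-1, miR-133, miR-208 and miR-499.

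The 10 hairpins occupy 33748 bases of the minus strand at chrX:66776757-66810504 (RefSeq, GRCm38.p6), and all 10 hairpins and 20 mature miRNAs were found there. In order of coordinate they are mir-743a, mir-743b, mir-742, mir-471, mir-741, mir-463, mir-880, mir-878, mir-881 and mir-871. Gaps between neighbours ran from 358 bases, between mir-878 and mir-881, to 12157 bases, between mir-742 and mir-471. None of the 10 overlapped an annotated gene of another type in GENCODE vM21. The nearest coding gene on the low-coordinate side was Slitrk2, whose end at 66661393 lies 115363 bases away.

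The mature sequences of the 13 arms with at least 150 tags show how alike the members are. They are printed with the seed in capitals.
miR-878-3p: gCAUGACAccacacuggguaga
miR-743a-3p: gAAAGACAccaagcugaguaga
miR-743b-3p: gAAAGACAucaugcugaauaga
miR-742-3p: gAAAGCCAccaugcuggguaaa
miR-880-3p: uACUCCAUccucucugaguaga
miR-871-3p: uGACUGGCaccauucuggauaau
miR-741-3p: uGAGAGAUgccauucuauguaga
miR-463-3p: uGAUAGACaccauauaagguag
miR-463-5p: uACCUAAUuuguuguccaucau
miR-871-5p: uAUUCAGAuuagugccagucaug
miR-878-5p: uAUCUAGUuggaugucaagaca
miR-743b-5p: uGUUCAGAcugguguccauca
miR-881-5p: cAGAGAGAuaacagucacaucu

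A shared seed occurred in 2 pairs among the 20 arms. miR-743a-3p and miR-743b-3p share AAAGACA, and miR-743a-5p shares AUUCAGA with miR-871-5p. No other mouse miRNA of the 1679 compared had either seed. The pair on the 3p side matched at 19 of 22 bases and the pair on the 5p side at 20 of 22. miR-742-3p matched miR-743a-3p at 18 of 22 bases, yet its seed AAAGCCA was not shared with any other miRNA. Outside the seed, 7 of the 10 annotated 3p miRNAs hold the letters CUGNNUA (searched on the miRNA strand only), which occur in 38 of the 1679 mouse miRNAs (2.26%). The 38 include these 7, whose sequences are related, so the share is a description and not a test. The 3 without the letters are miR-741-3p, miR-463-3p and miR-471-3p.

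The 3p strand carried most of the cluster's tags. The most abundant arm was miR-878-3p with 56.0 ± 23.4 CPM (counts of tags per 1000000 deposited tags, SD, n = 7 libraries, as for all such values), followed by miR-743a-3p with 38.4 ± 18.7, miR-880-3p with 29.5 ± 13.0 and miR-742-3p with 24.9 ± 13.0. These 4 arms held 58.8% of the cluster's tags. miR-878-3p exceeded miR-743a-3p in 7 of 7 libraries, miR-743a-3p exceeded miR-880-3p in 6 of 7, and miR-880-3p exceeded miR-742-3p in 7 of 7. The SDs are wide because the libraries of the time courses stand apart, as described below, while the order of these arms was nearly the same in every library.

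Below them, the order was not stable. miR-463-3p (20.2 ± 10.6), miR-463-5p (18.1 ± 6.29) and miR-743b-3p (16.8 ± 6.97) changed places between libraries, with the higher mean leading in 4 of 7 and 5 of 7. A clearer step followed, since miR-743b-3p exceeded miR-871-5p (9.08 ± 4.54) in 7 of 7 libraries. From miR-871-5p down to miR-741-5p, no neighbour in the order led in more than 5 of 7 libraries. miR-743b-5p had 7.71 ± 3.87 CPM, miR-871-3p 6.99 ± 2.45, miR-878-5p 4.99 ± 1.81, miR-881-5p 4.78 ± 4.91 and miR-741-3p 4.53 ± 1.17.

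The remaining arms were rare. miR-881-3p reached 3.58 ± 1.82 CPM, miR-743a-5p and miR-741-5p each 2.09 or 2.08, and the arms of mir-471 1.70 ± 0.565 (3p) and 1.21 ± 0.632 (5p). miR-742-5p, with 28 tags in all, and miR-880-5p, with 14, were the rarest. miR-880-5p had 0 tags in the day 3 library of time course 1, which allows up to 0.556 CPM. Per hairpin the totals ran from 121 tags (mir-471) to 2540 (mir-878).

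As a list, muscle miRNAs held far more tags than the cluster in the same libraries. The 9 hairpins of the miR-1, miR-133, miR-206, miR-208 and miR-499 families held 10.4% of all tags, against 0.0255% for the cluster, and every one of them was represented. Most of these tags were miR-1a-3p (64422 ± 7521 CPM). Not every muscle arm was abundant, since miR-499-5p (6.61 ± 2.94 CPM) and miR-208b-3p (3.56 ± 1.06 CPM) lay below miR-878-3p. The other hairpins known from testis, mir-34b, mir-34c, mir-449a, mir-449b, mir-449c, mir-184 and mir-202, held 0.0306%. Most of that was miR-184-3p (279 ± 91.7 CPM), which is also abundant in other tissues. miR-34c-5p had 390 tags in the 7 libraries (9.23 ± 2.84 CPM), miR-34b-3p 289, miR-34b-5p 161, miR-34c-3p 117 and miR-449c-5p 55. miR-449c-3p had 27 tags, and the arms of mir-449a, mir-449b and mir-202 had 3 to 19. A list for embryonic stem cells (the miR-290 to miR-295 and miR-302 clusters, 11 hairpins) held 0.00133%.

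Whether the cluster changed between the culture repeats was asked first. The summed cluster made up 148, 165 and 147 CPM at days 1, 3 and 4 of time course 1, and 330, 361, 298 and 326 at days 1, 2, 3 and 4 of time course 2. All 4 libraries of time course 2 lay above all 3 of time course 1. The means were 153 ± 10.3 (SD, n = 3) and 329 ± 25.9 (SD, n = 4), a 2.15-fold difference. Counting error was much smaller than this gap: the 95% Wilson intervals ran from 155 to 176 CPM for the highest library of time course 1 and from 284 to 312 for the lowest of time course 2. Depth did not separate the time courses, with 4945112 to 6832680 deposited tags in time course 1 and 5075580 to 6899476 in time course 2.

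**Figure D1:**
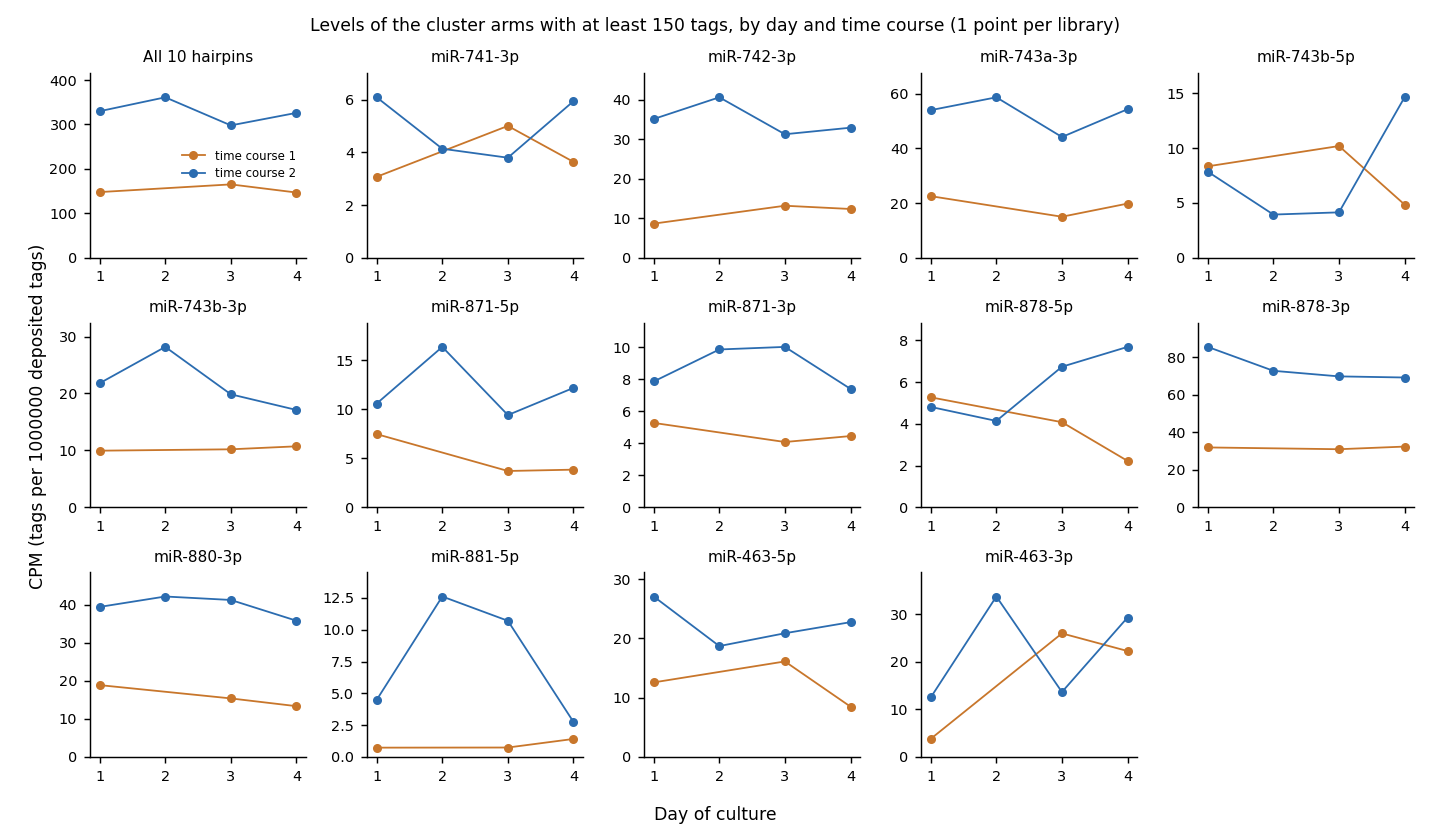
CPM (y) by day of culture (x) for the summed cluster and for each of the 13 arms with at least 150 tags, 1 point per library, with time course 1 in orange (no day 2) and time course 2 in blue; lines only join the libraries of a time course. The summed cluster lies between 147 and 165 in time course 1 and between 298 and 361 in time course 2, while miR-741-3p, miR-743b-5p, miR-878-5p and miR-463-3p overlap between the time courses.

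Arm by arm, edgeR's quasi-likelihood test with day and time course in the model was run over 729 arms of all hairpins, of which 18 belonged to the cluster (miR-742-5p and miR-880-5p had too few tags). With Benjamini-Hochberg adjustment, 8 of the 18 were higher in time course 2 at an adjusted p under 0.05, and 0 were lower. Over all arms 9.74% were called, 6.45% higher and 3.29% lower. The median log2 difference of the 18 was 0.93, against 0.01 over all 729 arms, and all 18 estimates were above 0, from 0.12 to 2.51. Estimates for miR-741-5p, miR-743b-5p, miR-463-3p and miR-471-5p fell below 0 under some of the other settings described in the closing section.

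The 4 abundant 3p arms were among the 8. miR-742-3p stood at 8.63, 13.2 and 12.3 CPM at days 1, 3 and 4 of time course 1, and at 35.1, 40.6, 31.2 and 32.9 at days 1 to 4 of time course 2. Its lowest library of time course 2 was above its highest of time course 1, and the fitted log2 difference was 1.59 ± 0.29 (SE, edgeR, adjusted p = 2.83e-04).

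miR-743a-3p stood at 22.5, 15.01 and 19.8 CPM in time course 1 and at 54.0, 58.7, 44.2 and 54.4 in time course 2. The groups did not overlap, and the log2 difference was 1.46 ± 0.27 (SE, edgeR, adjusted p = 3.19e-04). Its seed partner miR-743b-3p moved the same way, from 9.95, 10.2 and 10.7 CPM to 21.8, 28.2, 19.8 and 17.1 (log2 difference 0.96 ± 0.29, adjusted p = 0.0321). Both members of the AAAGACA seed pair were therefore higher in every library of time course 2 than in any of time course 1.

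miR-880-3p had 18.9, 15.4 and 13.3 CPM in time course 1, against 39.4, 42.2, 41.3 and 35.8 in time course 2. miR-878-3p was nearly level within each time course, at 31.9, 31.0 and 32.4 and then at 85.4, 72.7, 69.7 and 69.1. Neither overlapped between the time courses, and the log2 differences were 1.33 ± 0.27 for miR-880-3p (SE, edgeR, adjusted p = 9.44e-04) and 1.26 ± 0.28 for miR-878-3p (adjusted p = 0.0025).

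Among 5p arms, 3 were called. miR-463-5p was at 12.6, 16.1 and 8.49 CPM in time course 1 and at 27.1, 18.7, 20.9 and 22.8 in time course 2 (log2 difference 0.99 ± 0.30, edgeR adjusted p = 0.0307). For miR-871-5p the values were 7.46, 3.71 and 3.84 against 10.6, 16.4, 9.41 and 12.2 (1.17 ± 0.33, adjusted p = 0.0225). miR-881-5p had the widest difference, 2.51 ± 0.48 (adjusted p = 4.81e-04), but rests on few tags, with 5, 4 and 7 in time course 1 and 28, 64, 62 and 19 in time course 2. None of the 3 overlapped between the time courses.

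**Figure D2:**
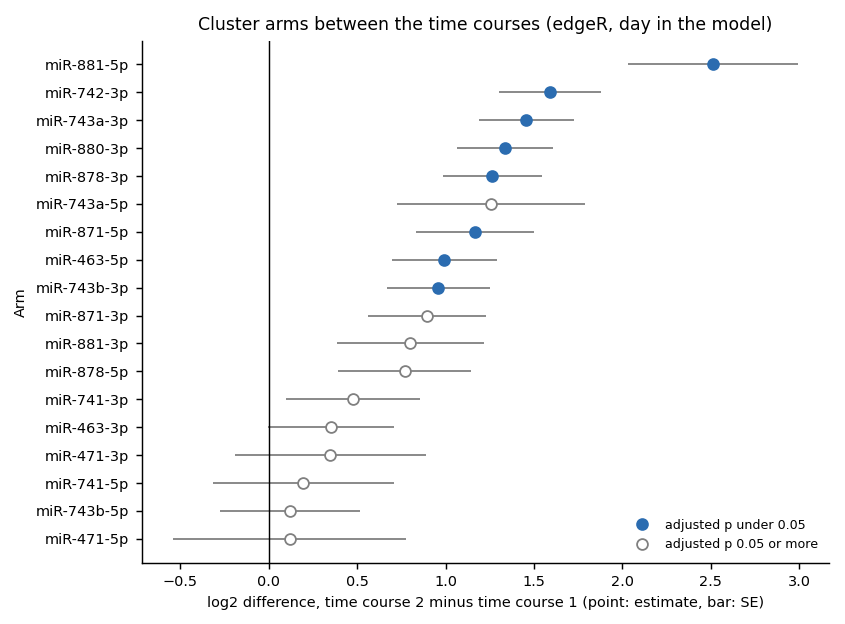
Fitted log2 difference of time course 2 minus time course 1 (x, bars are standard errors) for each of the 18 tested arms (y), filled where the adjusted p was under 0.05. All 18 points lie above 0, from 0.12 for miR-471-5p to 2.51 for miR-881-5p, and 8 are filled; miR-741-5p, miR-743b-5p, miR-463-3p and miR-471-5p lie below 0 under some other settings.

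Without overlap means here that the lowest library of time course 2, in CPM, was above the highest of time course 1. This held for 9 of the 18 tested cluster arms, the 8 called ones and miR-871-3p (5.27, 4.08 and 4.45 against 7.85, 9.85, 10.01 and 7.39, log2 difference 0.90 ± 0.33, edgeR adjusted p = 0.0871), and for 11.8% of all 729 arms. The reverse, every library of time course 2 below those of time course 1, held for 0 cluster arms and 7.54% of all arms. Days 1, 3 and 4 have a library from each time course. The library of time course 2 was the higher at all 3 days for 11 of the 18 cluster arms and for 22.8% of all arms.

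The other 9 tested arms overlapped between the time courses. Log2 differences of miR-743a-5p (1.26 ± 0.53, edgeR adjusted p = 0.137), miR-881-3p (0.80 ± 0.41, adjusted p = 0.239) and miR-878-5p (0.77 ± 0.38, adjusted p = 0.211) were not called. Smaller estimates were found for miR-741-3p (0.48 ± 0.38), miR-463-3p (0.35 ± 0.36), miR-471-3p (0.35 ± 0.54), miR-741-5p (0.20 ± 0.51), miR-743b-5p (0.12 ± 0.40) and miR-471-5p (0.12 ± 0.66), with adjusted p from 0.483 to 0.951. Except for miR-741-3p, the standard errors of these smaller estimates exceed the estimates themselves, and no difference was detected.

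The number of calls depended on single libraries, in the cluster and over all arms. Leaving out 1 library at a time gave 0 to 68 calls over all arms, against 71 with all 7 libraries. Leaving out either library of day 1, or the day 3 library of time course 1, left 0 cluster arms called, without the day 4 library of time course 2 there was 1, and without that of time course 1 there were 5, whereas the log2 differences of miR-742-3p, miR-743a-3p, miR-878-3p and miR-880-3p stayed between 1.09 and 1.76. Time course 1 and time course 2 also differ in whatever else was done separately for them, such as library preparation, and these cannot be told apart.

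Hairpins near the cluster were compared by the same fit. mir-883a and mir-883b lie within its span, and mir-465a to mir-465d, mir-470, mir-201, mir-547 and mir-509 farther along the X chromosome, 12 hairpins with 0.0101% of tags. Of their 13 tested arms, 11 had a higher estimate in time course 2 and 2 a lower one, 1 was called, and the median log2 difference was 0.42. The called arm was miR-883b-5p (1.48 ± 0.47, edgeR adjusted p = 0.0399), and miR-883a-3p was at 0.92 ± 0.31 (adjusted p = 0.0590). The 2 lower estimates were those of miR-201-3p, with 76 tags (-2.31 ± 0.82, edgeR adjusted p = 0.0729), and miR-883a-5p (-0.18 ± 0.44, adjusted p = 0.885). The estimate of miR-201-3p was thus the farthest from 0 among the tested neighbours and went the opposite way. The arms of mir-465a, mir-465b and mir-465c, which share tags among near-identical copies, had estimates from 0.41 to 0.58 and none was called. The difference between members and neighbours was not tested.

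The muscle list had a median log2 difference of 0.01 over 12 tested arms, with 0 called higher and 1 lower (miR-208a-3p, -1.16 ± 0.30, edgeR adjusted p = 0.0117). Over 7 tested arms of the testis miRNAs outside the cluster the median was 0.08 and 0 were called, and over 4 of the stem cell list it was -0.93 with 0 called. Summed levels of the testis list overlapped between the time courses (252 to 453 and 178 to 347 CPM), as did those of the muscle list (95214 to 115348 and 99785 to 112520).

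Among 452 other arms with at least 150 tags, those whose centred log2 levels over the 7 libraries lay closest to the summed cluster were miR-532-3p, miR-671-3p and miR-3061-3p, at root mean square distances of 0.143, 0.148 and 0.179 (median of all, 0.632). Their genes lie on chromosomes X, 5 and 11. miR-532-3p had 200, 257 and 218 CPM in time course 1 and 454, 402, 433 and 447 in time course 2. Of the cluster's own arms miR-878-3p was closest to the sum (0.136), which contains it, and miR-463-3p farthest (0.897).

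Across days, no cluster arm was called when day was the only factor. In the comparison of day 4 with day 1, edgeR with day as the only factor called 0 of the 18 cluster arms and 0 of 729 arms (0%), and 74 arms, 2 of them in the cluster, had an unadjusted p under 0.05. DESeq2 called 14 arms, 0 of them in the cluster. The median log2 difference of the cluster was -0.02, and 9 arms had higher and 9 lower estimates. Comparing days 3 and 4 with days 1 and 2 gave a median of -0.14, with 6 higher and 12 lower, and edgeR called 0 cluster arms (0 with an unadjusted p under 0.05, and 0 by DESeq2) against 0.412% of all arms.

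Because libraries of the same time course deviated together, the comparison of days was also fitted with time course as a block. Day 4 against day 1 then had 47 of 729 arms called (6.45%). In the cluster 1 of 18 was called, which is near that share. The called arm was miR-463-3p, with a log2 difference of 1.86 ± 0.43 (SE, edgeR, adjusted p = 0.00987). Without the block it was 1.79 ± 0.63 (edgeR, adjusted p = 0.412). Its levels were 3.81, 25.9 and 22.2 CPM at days 1, 3 and 4 of time course 1 and 12.5, 33.7, 13.6 and 29.3 at days 1 to 4 of time course 2. Day 4 exceeded day 1 in both time courses, but the day 3 library of time course 2 lay close to day 1. The other 17 arms were not called, and miR-881-3p came nearest (1.45 ± 0.51, adjusted p = 0.0883 with the block).

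These miR-463-3p tags were, for the most part, not the annotated miRNA. Of 806 tags on the 3p arm of mir-463, 723 (89.7%) started 8 nt before the annotated 3p start, at position 33 of the hairpin, and 60 within 3 nt of it. Position 33 lies in the terminal loop of the structure predicted by RNAfold (bases 26 to 36), so that these tags begin in the loop and run into the 3p strand. Such tags made up 46.3% of all tags of the hairpin. The commonest, printed with bases 2 to 8 in capitals, was seen 264 times.
miR-463 loop tag: aUAAAUGAugauagacaccau
Its bases 2 to 8 matched the seed of no annotated mouse miRNA. Its exact sequence occurred in the transcripts of 1 of 55341 annotated genes, mir-463 itself. The shifted tags were searched in annotated transcripts and not in the whole genome, so an origin outside annotated transcripts was not tested. Most were short, since 61.1% of the tags over 3 nt from the annotated start were 18 to 20 nt long.

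By library, the loop tags stood at 1.90, 22.2 and 21.4 CPM at days 1, 3 and 4 of time course 1 and 10.1, 31.9, 12.4 and 27.1 at days 1 to 4 of time course 2. In raw counts, tags within 3 nt of the annotated start numbered 4 to 13 per library, against 13 to 187 loop tags. Counted as a feature of their own in the fit without the block, tags off the annotated start had a log2 difference of 2.02 ± 0.72 between day 4 and day 1 (edgeR, adjusted p = 0.459), and the annotated miR-463-3p one of -0.23 ± 0.74 (adjusted p = 0.969). Between the time courses, tags off the annotated start counted apart had a log2 difference of 0.52 ± 0.46 (edgeR, adjusted p = 0.540), and the loop tags overlapped. In that same fit miR-463-5p was at 1.02 ± 0.30 (adjusted p = 0.0621) and was not called either. The difference between the 2 features was not tested.

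mir-743b also gave shifted tags, on the 5p arm. Here 222 of 330 tags (67.3%) started at position 5, which is 6 nt before the annotated start, and 93 within 3 nt of the annotated start. Unlike the tags of mir-463, 83.5% of the shifted tags of this arm had the usual 22 nt. The commonest was seen 190 times and also holds a seed of its own, found in no annotated mouse miRNA.
miR-743b-5p, shifted start: gUGCUGUGuucagacugguguc
By library they stood at 5.12, 7.60 and 3.24 CPM in time course 1 and at 4.17, 1.97, 1.04 and 12.8 in time course 2. The day 4 library of time course 2 was the highest and its day 3 library the lowest, and the time courses overlapped (log2 difference 0.03 ± 0.62 for tags over 3 nt away, edgeR adjusted p = 0.989).

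On mir-881 almost the whole 5p arm was shifted. Of 189 tags, 155 started 5 nt and 25 started 4 nt before the annotated start, and only 3 lay within 3 nt of it. Most were short, since 72.6% of the 186 tags over 3 nt away were 18 to 20 nt long. The start 4 nt before the annotated position is at hairpin position 11, where the annotated 5p miRNAs of mir-743b, mir-871, mir-878 and mir-880 also start. A tag from that position has the bases 2 to 8 of miR-743a-5p and miR-871-5p, AUUCAGA, which the annotated miR-881-5p (seed AGAGAGA) does not have. The commonest tags of both starts were seen 55 and 16 times.
miR-881-5p, 5 nt before: aUAUUCAGagagauaaca
miR-881-5p, 4 nt before: uAUUCAGAgagauaacagucac
Together they reached 0.585, 0.556 and 1.21 CPM in time course 1 and 4.33, 12.4, 10.5 and 2.32 in time course 2. The time courses did not overlap, and 180 of the 189 tags behind the difference of miR-881-5p given above are of this kind (log2 difference 2.62 ± 0.54, edgeR adjusted p = 0.0104, when tags over 3 nt away were counted apart).

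**Figure D3:**
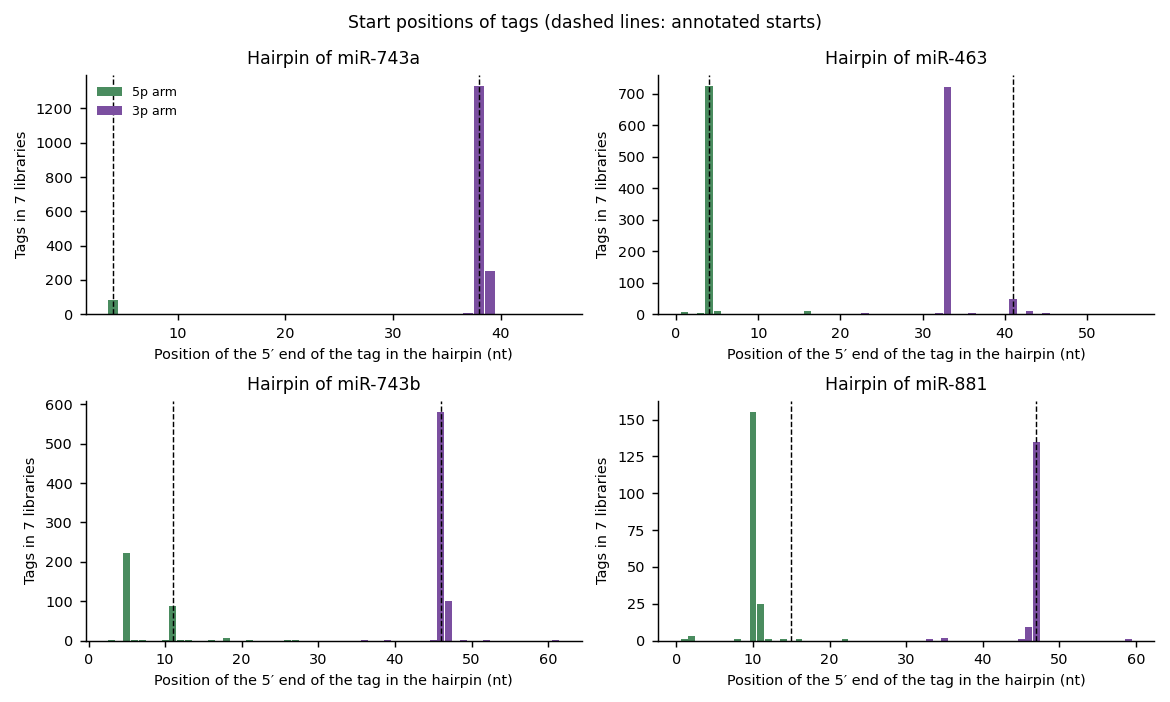
Number of tags in 7 libraries (y) by the position of their 5′ end in the hairpin (x, nt from the hairpin's first base), 5p arm in green and 3p arm in purple, dashed lines at annotated starts. On mir-743a 1331 tags start at the annotated 3p site and 254 start 1 nt later, while mir-463 has 723 tags 8 nt before its 3p site, mir-743b has 222 tags 6 nt before its 5p site and mir-881 has 155 tags 5 nt before its 5p site.

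**Figure D4:**
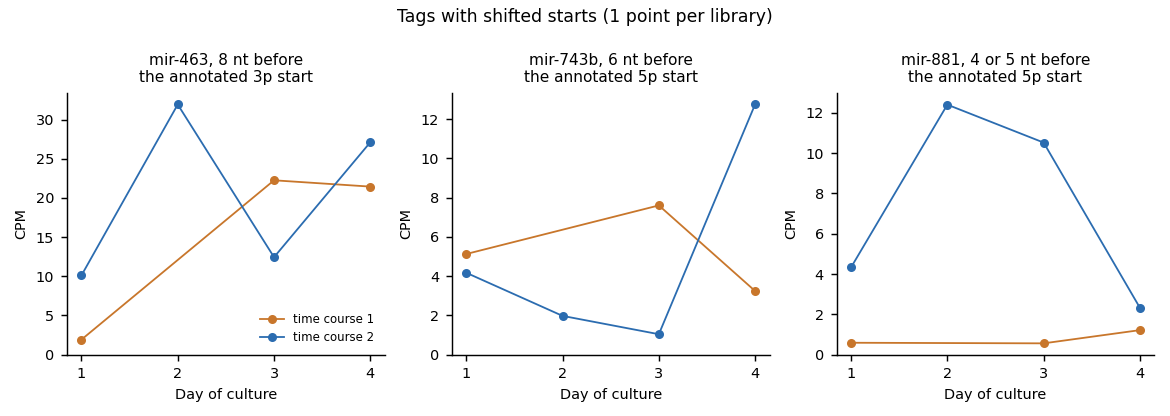
CPM (y) by day of culture (x) for the shifted starts of mir-463, mir-743b and mir-881, 1 point per library, time course 1 in orange and time course 2 in blue. Only the tags of mir-881 separate the time courses, with 0.556 to 1.21 against 2.32 to 12.4.

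mir-471, the rarest hairpin, was also irregular on the 3p side. Of its 72 tags there, 23 started 5 nt after and 17 started 13 nt before the annotated start, while 10 lay within 3 nt. The other abundant arms kept to their annotation. Shares of tags within 3 nt of the annotated start were 97.0% for miR-878-3p, 98.2% for miR-742-3p, 98.6% for miR-880-3p, 98.7% for miR-463-5p, 99.4% for miR-743b-3p and 99.7% for miR-743a-3p.

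Inside that window, 5′ isomiRs were common on a few arms. miR-743a-3p started 1 nt later in 254 of 1599 tags (15.9%, from 10.2% to 19.7% by library), and miR-743b-3p did so in 101 of 688 (14.7%, from 7.27% to 28.3%). The shift moves both out of their shared seed: the commonest late tag of miR-743a-3p has bases 2 to 8 AAGACAC and that of miR-743b-3p has AAGACAU. miR-741-3p started 2 nt later in 51 of 188 tags (27.1%) and 1 nt later in 17 (9.04%). By contrast miR-742-3p started exactly at the annotated base in 97.2% of tags, miR-880-3p in 97.1% and miR-878-3p in 92.2%.

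The 3′ ends varied more. Among tags with the annotated start, those that also had the annotated end made up 69.0% for miR-743a-3p, 51.0% for miR-743b-3p, 45.2% for miR-880-3p, 42.8% for miR-878-3p and 29.4% for miR-742-3p. Of miR-742-3p tags 59.3% were shorter than annotated, with a modal length of 21 nt in place of 22. miR-463-5p had its annotated end in 39.7% of tags and was shorter in 20.3%, with the rest longer. Counted over the cluster, 93.8% of tags matched their hairpin without a mismatch.

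Strand choice was compared within libraries as log2 of 5p over 3p tags. Exact two-sided sign-flip permutation tests over 7 libraries were made for 453 hairpins with at least 50 tags, and the p-values were adjusted over all 453. The smallest p that 7 libraries allow is 0.0156. In 6 of the 10 cluster hairpins the 3p strand prevailed at an adjusted p under 0.05, and the 5p strand in 0, where 77.7% of all hairpins were called, 40.4% for the 3p and 37.3% for the 5p strand.

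The bias was steepest for mir-880, with a mean log2 ratio of -6.25 ± 0.868 (SD, n = 7, exact test, adjusted p = 0.0231), and 98.9% of its tags on the 3p arm. It was -4.91 ± 0.921 for mir-742, -4.19 ± 0.536 for mir-743a, -3.43 ± 0.601 for mir-878 and -1.14 ± 0.504 for mir-741, each with the same sign in all 7 libraries and the same adjusted p. mir-743b had a ratio of -1.16 ± 1.08 (exact test, adjusted p = 0.0402), with both arms equal at 55 tags in the day 3 library of time course 1. Leaving out 1 library at a time, the call held without that library (exact test, adjusted p = 0.0434). The other 6 fits keep that library, whose ratio of 0 has no sign to flip. With so few libraries they could not reach the threshold whatever the rest held (adjusted p from 0.0762 to 0.0788), so they do not test the call.

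For the other 4 hairpins neither strand was called. mir-871 had 56.7% of its tags on the 5p arm and a log2 ratio of 0.28 ± 0.408 (exact test, n = 7, adjusted p = 0.163). The arms of mir-463 (0.02 ± 1.13) and mir-881 (-0.18 ± 1.48) were nearly even in the mean, with SDs above 1, the 5p arm leading in 3 of 7 libraries for each. mir-471 had a ratio of -0.52 ± 0.653 (exact test, n = 7, adjusted p = 0.0944), with the 5p arm ahead in 1 of 7. Shifted tags weigh on these ratios. They changed with only tags within 3 nt of an annotated start, an alternative chosen after seeing the data. The log2 ratio became 3.55 for mir-463, towards 5p, -4.56 for mir-881, towards 3p, and 2.31 for mir-471, towards 5p. All 3 had an adjusted p under 0.05 (exact test, 0.0209, 0.0209 and 0.0385), and 9 of the 10 hairpins were called. Over all hairpins, 324 to 353 were called under the 5 alternatives that kept all libraries, against 352 of 453 with all tags. The setting leaves out 746 of 806 tags of miR-463-3p, 186 of 189 of miR-881-5p and 62 of 72 of miR-471-3p, which by itself moves the ratios.

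**Figure D5:**
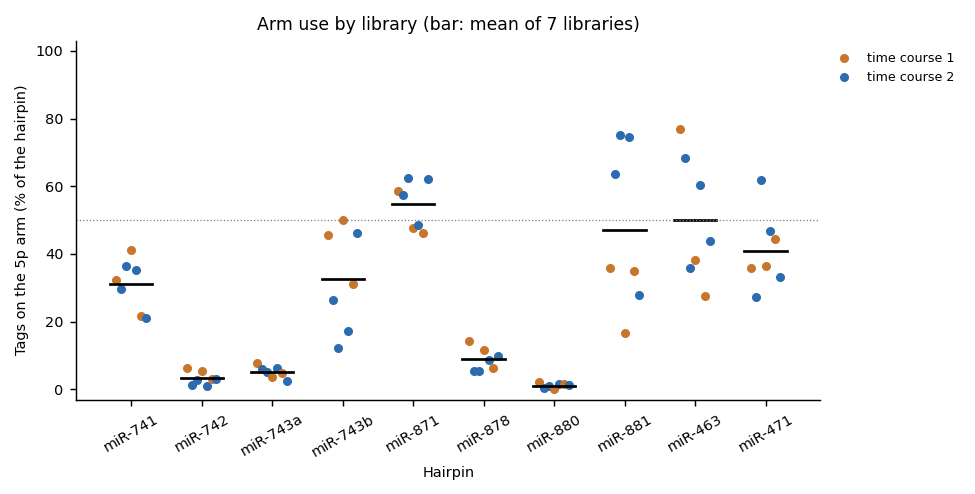
Share of each hairpin's tags on the 5p arm (y, percent) for the 10 hairpins (x), 1 point per library with time course 1 in orange and time course 2 in blue, and a bar at the mean of 7 libraries. mir-880, mir-742, mir-743a and mir-878 stay at or below 14.2% in every library, while mir-881 runs from 16.7% to 75.3% and mir-463 from 27.6% to 76.8%.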

How the data were processed

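The authors sequenced 7 small RNA libraries of HL-1 cells (SOLiD Small RNA Expression Kit, size selection, no molecular identifiers) and mapped the reads with the SOLiD Small RNA Pipeline to miRBase hairpins and the genome (mm9). For each library they deposited distinct tag sequences with raw counts, 4945112 to 6899476 tags per library. The deposited counts were not normalized. The tables hold almost only tags on miRNA hairpins (0.340% were not placed here), so CPM (counts per 1000000 deposited tags) are relative to these tags and not to all sequenced tags.

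Tags of at least 16 nt were placed on 1222 hairpins (1005 from RefSeq GRCm38.p6, 217 from GENCODE vM21) by the best ungapped hit with at most 2 mismatches. A tag could overhang its hairpin by 4 bases at most and had to share at least 15 with it. Equal hits were divided equally (28.5% of all tags, 3 or fewer per member hairpin). Another 293 tags, on 101 lines with no sequence, were not used. The placement was tested on simulated data, where 99.8% of 3000 tags returned to their origin and 0 of 2000 random sequences found a hairpin. A tag was given to the arm whose annotated start was nearest, and copies of a hairpin were merged.

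Arms were compared with edgeR 4.0.16 (R 4.3.3), TMM factors, filterByExpr by day, and a threshold of 0.05 on the Benjamini-Hochberg adjusted p. Models held day, late or early culture, or day and time course, over all 7 libraries. The single day 2 library is assumed to vary like the others in the comparison of late with early culture. Models with day as a factor fit it by a term of its own. The fitted time course differences therefore rest on days 1, 3 and 4. The day model had 3 residual degrees of freedom and the time course model 2. Standard errors were derived from the F statistic. In data simulated for the time course comparison (707 arms), 91.8% of 4-fold and 50% of 2-fold changes were called, and 3 of 512 unchanged arms. Replicate numbers mark independent repeats of the time course. Same-numbered libraries deviated together from their day means over 729 arms (r = 0.388, 0.398 and 0.380 for the 3 pairs of days), so the numbers were taken to pair the libraries, and a fit with time course as a block was also made. Arm ratios had 0.5 tags added to each arm and were tested by exact sign-flip permutation, which treats 7 libraries of 2 time courses as independent. Structures were predicted with RNAfold 2.7.2. Wilson intervals (95%) and the limit for 0 tags (3 tags) cover counting error only. DESeq2 1.42.0 and the other alternatives are given in the closing section.

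The 10 members, the lists of muscle, testis, stem cell and neighbouring miRNAs and the tests were chosen with earlier results of these data known. All 10 members were accounted for. Other miRNAs were named from those lists, or as the 3 arms with the levels most like the summed cluster. Sequences were shown for arms with at least 150 tags and for commonest tags whose start lay over 3 nt from the annotated one.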

Additional observations from a re-analysis of the deposited data

Results flagged for a closer look

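For 4 of the 13 arms with at least 150 tags, days 3 and 4 both lay on one side of day 1 in time course 1 and both on the opposite side in time course 2. None of these differences was tested, and each rests on 1 library per day and time course. How many arms of all hairpins meet this rule was not counted, so 4 of 13 cannot be read as a trait of the cluster. The mean log2 change from day 1 in time course 1 minus that in time course 2 was 0.83 for miR-741-3p, 0.69 for miR-742-3p, 0.31 for miR-743b-3p and -1.39 for miR-878-5p. For miR-742-3p the log2 changes from day 1 were 0.61 and 0.51 at days 3 and 4 of time course 1, and -0.17 and -0.09 in time course 2, so the gap between the time courses was widest at day 1. For miR-878-5p they were -0.37 and -1.24 in time course 1 and 0.49 and 0.68 in time course 2. No library stood apart by Dixon's criterion in 28 groups of 4 libraries examined (the 13 arms and the summed cluster, in late culture and in time course 2). In groups of like libraries, chance would flag about 1 in 20. Late culture holds libraries of both time courses, so where these separate the criterion could hardly flag a single library. The libraries of time course 1 were not examined as a group.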

How the results depend on the processing

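The comparison of the time courses depended most on the settings. Against 71 arms and 8 cluster arms called, library totals gave 33 and 5, and tags without a mismatch 34 and 5. The model without a day term gave 32 arms, and DESeq2 gave 50 arms, 5 of them in the cluster. The count of arms rose to 83 with no low-count filter and to 88 with tags on several hairpins left out (8 cluster arms in each). miR-742-3p, miR-743a-3p, miR-878-3p, miR-880-3p and, where tested, miR-881-5p were called under every alternative other than leaving out libraries, with log2 differences of 1.53 to 1.69, 1.38 to 1.56, 1.20 to 1.37, 1.27 to 1.45 and 2.44 to 2.94, while miR-743b-3p, miR-871-5p and miR-463-5p lost their call under 3 to 5 of them. Leaving out 1 library at a time gave 0 to 68 arms and 0 to 8 cluster arms, and a day with 1 library left adds nothing to this comparison. The median log2 difference of the cluster stayed between 0.78 and 1.02. Among estimates that were not called, some changed sign. miR-743b-5p became -0.0061 without a day term, miR-471-5p -0.48 without mismatched tags, and the annotated miR-463-3p -0.12 with shifted starts counted apart. By leaving out 1 library they ran from -0.68 to 0.76 for miR-743b-5p, from -0.19 to 0.36 for miR-471-5p, from -0.30 to 1.02 for miR-463-3p and from -0.24 to 0.78 for miR-741-5p.

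For day 4 against day 1, with 0 arms called, DESeq2 called 14 and the replicate block (time course) 47, of which 1 was a cluster arm. Leaving out 1 library gave 0 to 5 arms and 0 cluster arms. miR-463-3p became -0.23 with shifted starts counted apart. For late against early culture, with 3 arms called, DESeq2 called 14, the block 3, and leaving out 1 library 0 to 6, with 0 cluster arms throughout. The block changed no other call of a cluster arm. In arm use, 5 to 6 cluster hairpins were called without 1 library (mir-743b in 1 of 7 such fits, the only one able to reach the threshold for it). The ratio ran from -0.26 to 0.26 for mir-463 and from -0.47 to 0.16 for mir-881. It turned to 2.31 for mir-471 with annotated starts only. The summed level stayed between 236 and 271 CPM. Counting shifted starts apart, and annotated starts only, were chosen after seeing the data. Where no cause is named above, the cause was not tested. Depth limits the rare arms, such as those of mir-471 with 49 and 72 tags.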
